A study of Mus musculus with 88 samples.

Results

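The time course of the SCCVII tumour after 30 Gy of gamma rays is described here. Its members were chosen by the sample titles: pairs of arrays taken 6 h, 1 day and 3 days after the dose, and 2 arrays of untreated SCCVII from the same gamma-ray arm, which makes 8 of the 88 arrays of the series. SCCVII is labelled a squamous cell carcinoma that arose spontaneously in a C3H/He mouse, and it was grown as a transplant in the hind leg of C3H/HeNrs mice. The series irradiated 4 mouse tumours with carbon ions or gamma rays, and each beam had untreated tumours of its own. Set beside the 8 arrays are SCCVII at 6 h after 50 Gy of gamma rays, SCCVII at the same times after 30 Gy of carbon ions with the untreated SCCVII of the carbon-ion arm, and NR-S1, NFSa and #8520 at the same times after 30 Gy of gamma rays with their own untreated tumours. By the labels NR-S1 is also a spontaneous squamous carcinoma and NFSa a spontaneous fibrosarcoma, both of C3H/He mice, and #8520 is a fibrosarcoma that radiation induced in a C3H mouse. Whether tumours were pooled is not stated in the labels, nor are the age and sex of the mice. Xist, an RNA of female cells, was among the largest falls from 6 h to day 1. Whether the groups differ in sex was not tested.

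Ionising radiation breaks DNA, and the break is signalled through the kinases ATM and ATR to the transcription factor p53. p53 switches on genes that halt the cell cycle, such as Cdkn1a, genes that limit p53 itself, such as Mdm2, and genes of apoptosis, such as Bbc3. Cells with damaged DNA also stop before mitosis, and genes of the spindle and of mitotic cyclins are then little transcribed until the arrest is released. Type I interferon can be made when damaged or misplaced DNA is sensed in the cytoplasm, and it switches on a large set of antiviral genes. A transplanted tumour also holds lymphocytes, myeloid cells, vessels and stroma of the host, and its RNA is the sum of all of these. In such bulk RNA, fewer cells of a type and less RNA per cell cannot be told apart.

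Each array gave 36227 probe intensities on a linear scale, with medians of 1.053 to 1.06 over the 8 arrays and no value for 227 to 415 probes. Paired arrays had a correlation across genes of 0.9955 to 0.9969, and their log2 values differed with an SD of 0.1855 to 0.2249. No label states if paired arrays are of different mice, and p-values here describe array-to-array spread, which may be technical. The 2 untreated groups of SCCVII stood apart from each other: between the gamma-ray arm and the carbon-ion arm 6233 of 13447 genes (46.4%) differed by limma's test at an adjusted p under 0.05, 2442 of them by at least 1.5-fold (18.2%). Skeletal muscle genes were lower in the untreated tumours of the gamma-ray arm for 23 of 25 members, with a median log2 difference of -3.54. Changes were therefore also computed against the untreated arrays of both arms: of the mitosis genes 39 then fell at 6 h, 35 rose at day 1 and 21 fell at day 3, and of the interferon-stimulated genes 34 fell at 6 h and 46 rose at day 3.

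The label of a squamous carcinoma was checked against keratinocyte and epithelial genes. Krt5 and Krt14, the keratins of basal squamous epithelium, had intensities of 0.216 to 0.389 and 0.138 to 0.256 over the 8 arrays, below the array medians. Trp63, a transcription factor of squamous epithelium, lay at 0.101 to 0.511 and Epcam at 0.428 to 0.549, with no value for Epcam on 1 untreated array. Sfn, an epithelial 14-3-3 protein, lay at 32.7 to 40.9 and the keratin Krt8 at 4.87 to 13.3, above the medians. Krt16, a keratin of activated keratinocytes, also lay above the medians in untreated tumours and at day 3. Krt5, Krt14, Trp63 and Epcam were thus dim in every group while other members of the list were not. The tumour is called by its name here. Of 23 keratinocyte and epithelial genes tested, 2 rose and 1 fell at 6 h, 4 rose and 1 fell at day 1, and 9 rose and 2 fell at day 3.

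Changes against the untreated tumours grew in number over the 3 times. At 6 h 2111 of 13447 genes (15.7%) passed the test, 1239 rising (9.21%) and 872 falling (6.48%). At day 1 the test was passed by 2960 of 13448 (22%), with 1880 rises (14%) and 1080 falls (8.03%). Day 3 had 3752 of 13445 (27.9%), with 2309 rises (17.2%) and 1443 falls (10.7%). All genes tested had a median log2 change of 0.04, 0.04 and 0.06 in time order. After quantile normalization 48.8% of the day 3 calls were rises, 1690 against 1771 falls, where 61.5% were rises without it. The 3 comparisons share the 2 untreated arrays. Gene groups are described by how many members rose or fell and by their median, which can be read beside these shares and medians of all genes.

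**Figure D1:**
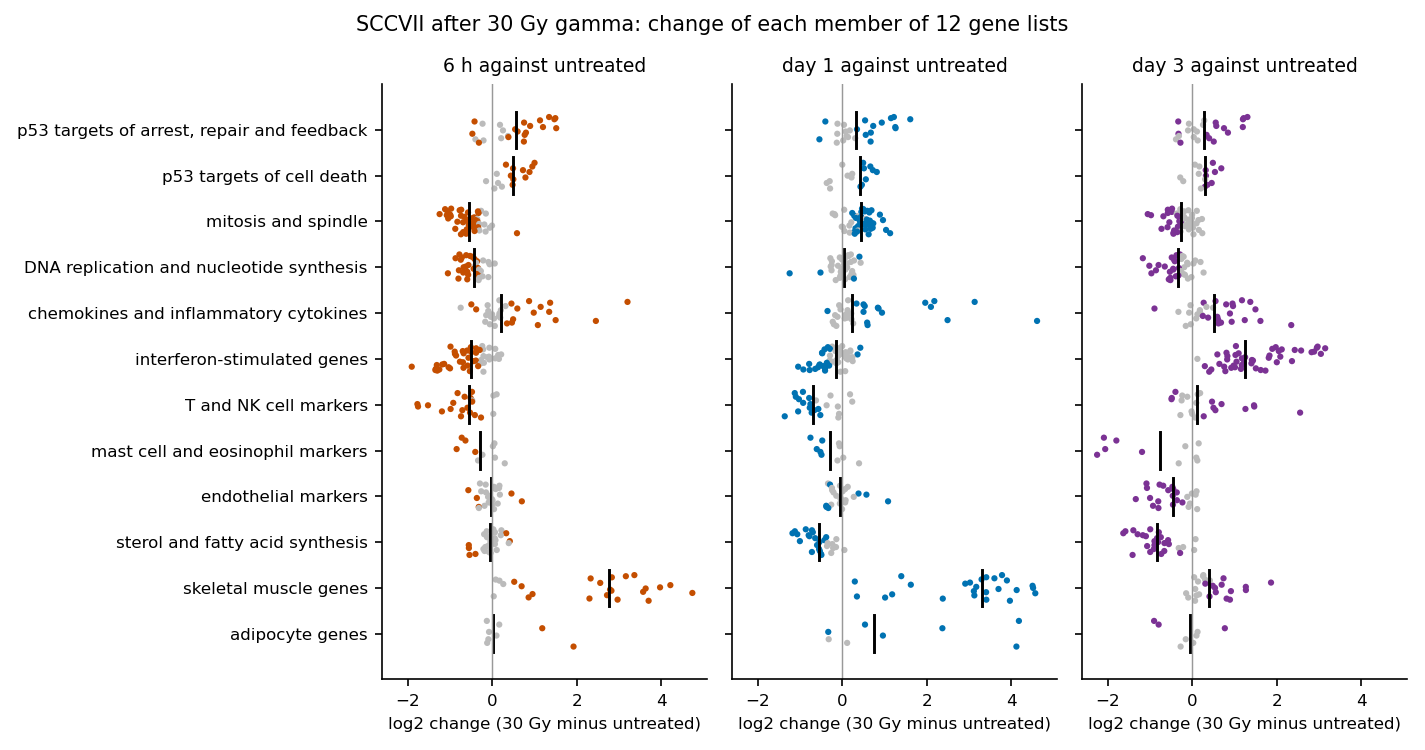
Log2 change (x axis) of each tested member of 12 gene lists (rows) in SCCVII at 3 times after 30 Gy of gamma rays (panels) against untreated tumours of the gamma-ray arm, with 2 arrays a group. Each point is a gene, coloured where it passed the test and grey where it did not, and black bars are list medians. The median of mitosis genes is -0.56, 0.45 and -0.28 in time order, and at day 3 that of interferon-stimulated genes is 1.25 and that of sterol synthesis genes -0.84.

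More p53 targets rose than fell at each time. Of 24 p53 targets of arrest, repair and feedback, 14 rose and 3 fell at 6 h, 12 rose and 2 fell at day 1, and 11 rose and 3 fell at day 3, with medians of 0.57, 0.32 and 0.27 on the log2 scale. Cdkn1a, which encodes p21 and holds cells in arrest, had intensities of 110 and 140 at 6 h, 126 and 103 at day 1 and 118 and 124 at day 3, against 43.3 and 55.2 in untreated tumours. All 6 irradiated arrays lay above both untreated arrays. Cdkn1a rose by 1.34, 1.22 and 1.30 on the log2 scale in time order (SE 0.192, adjusted p = 2.4e-07, 1.4e-06 and 2.6e-07). Between the times Cdkn1a differed by -0.12 from 6 h to day 1 (adjusted p = 0.77) and by 0.09 from day 1 to day 3 (adjusted p = 0.83).

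Mdm2, the ubiquitin ligase that degrades p53, had intensities of 14.9 and 11.7 at 6 h, 10.9 and 9.96 at day 1 and 10.7 and 11.1 at day 3, against 4.96 and 4.44 in untreated tumours. It was 2.81-fold, 2.22-fold and 2.32-fold higher than untreated, without overlap at any time. Ccng1, a cyclin that p53 induces, gave 31.9 and 33.8 at 6 h, 34.5 and 38.0 at day 1 and 25.9 and 28.7 at day 3, against 11.3 and 12.5 untreated. Ptprv, a phosphatase of p53-dependent arrest in the mouse, was steady at 53.7 and 60.0, 59.6 and 58.3, and 56.3 and 57.1 over the 3 times, against 23.6 and 26 in untreated tumours. Mdm2 was lower at day 1 than at 6 h, and Ccng1 lower at day 3 than at day 1, without overlap. Cdkn1a, Mdm2, Ccng1 and Ptprv all stayed 2.22-fold to 3.05-fold higher than untreated from 6 h to day 3. Btg2, an antiproliferative gene of rapid turnover, did not: it rose by 1.13 at 6 h and 0.54 at day 1, and its day 3 value of 0.28 did not pass (adjusted p = 0.098).

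Apoptosis genes among the p53 targets rose most at 6 h, with 10 of 15 rising and 0 falling at 6 h, 8 and 0 at day 1, and 8 and 0 at day 3, at medians of 0.48, 0.43 and 0.30. Without the second array of day 3 the 8 rises of day 3 became 2, without the first untreated array 3, and without the first day 3 array 4. Bbc3, which encodes the BH3-only protein PUMA, had 3.83 and 3.85 at 6 h, 2.61 and 2.81 at day 1 and 2.47 and 2.94 at day 3, against 1.92 and 1.93 untreated. On the log2 scale it rose by 1.00, 0.49 and 0.49 (SE 0.0876, adjusted p = 1.3e-13, 1.5e-05 and 1.4e-05). Fas, a death receptor, gave 4.32 and 2.43 at 6 h, with the 2 arrays far apart, 2.83 and 2.51 at day 1 and 1.85 and 1.94 at day 3, against 1.94 and 1.46 untreated. It rose by 0.94 at 6 h and 0.66 at day 1, and 0.17 at day 3 (adjusted p = 0.56), where the groups overlapped. Some p53 targets went the other way: Sesn1, a stress-induced inhibitor of growth signalling, fell by 0.42, 0.40 and 0.33 on the log2 scale at the 3 times, and Ddb2, a damage sensor of nucleotide excision repair, fell by 0.48 at 6 h. Falls among the targets of arrest, repair and feedback depended on single arrays. At each time they lost their calls when a certain array of the comparison was left out.

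Most mitotic genes fell at 6 h, most rose above the untreated level at day 1, and fewer than at 6 h fell at day 3. Of 48 mitosis and spindle genes, 38 fell and 1 rose at 6 h, 35 rose and 0 fell at day 1, and 21 fell and 0 rose at day 3, with medians of -0.56, 0.45 and -0.28. From 6 h to day 1 the test was passed by 1914 of 13451 genes (14.2%), with 1175 rises (8.74%), and 46 of the 48 mitosis genes rose, with 0 falls. From day 1 to day 3 it was passed by 2935 of 13449 genes (21.8%), with 1501 falls (11.2%), and 45 of the 48 fell, with 0 rises. The day 1 rise is the most sensitive to single arrays: 35 rises became 21 without the second day 1 array, 23 without the first untreated array, and 24 after quantile normalization. On day 3 the 21 falls became 13 without the first day 3 array, and at 6 h the 38 falls became 25 with only the arrays compared in the fit.

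Plk1, the kinase that drives entry into and exit from mitosis, had intensities of 1.57 and 1.61 at 6 h, 4.15 and 4.50 at day 1 and 2.08 and 2.42 at day 3, against 2.96 and 3.31 in untreated tumours. The 4 groups did not overlap, with 6 h lowest, then day 3, then untreated, then day 1. Its log2 change was -0.98, 0.47 and -0.48 (SE 0.113, adjusted p = 1e-09, 0.0015 and 0.0008). Between times it rose by 1.44 from 6 h to day 1 (adjusted p = 6.9e-15) and fell by 0.95 from day 1 to day 3 (adjusted p = 1.2e-09). Against the untreated arrays of both arms the day 3 value of Plk1 turned to 0.017 (adjusted p = 0.91).

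Cdc20, the activator of the anaphase-promoting complex, gave 15.9 and 18.3 at 6 h, 45.0 and 49.4 at day 1 and 25.8 and 29.2 at day 3, against 26.1 and 32.8 untreated. It fell by 0.78 at 6 h and rose by 0.69 at day 1 on the log2 scale, and day 3 overlapped the untreated arrays (-0.09, adjusted p = 0.6). Ccnb2, a mitotic cyclin, had 44.8 and 66.4 at 6 h, 168 and 167 at day 1 and 93.1 and 102 at day 3, against 118 and 119 untreated. Hmmr, a spindle assembly factor, reached 40.6 and 42.8 at day 1, against 20.2 and 20.5 untreated, a 2.05-fold rise that was the largest of the list at day 1 after Gtse1. Bub1b, a spindle checkpoint kinase, had 1.28 and 1.15 at 6 h, 2.49 and 2.58 at day 1 and 1.24 and 1.55 at day 3, against 2.70 and 3.08 untreated. It fell at 6 h (-1.25) and day 3 (-1.06) and did not pass at day 1 (-0.19, adjusted p = 0.46). Gtse1, which binds p53 and moves it out of the nucleus in G2, was the 1 gene of the list that rose at 6 h: it had 15.7 and 17.1 at 6 h, 23 and 24.9 at day 1 and 12.8 and 13 at day 3, against 11.3 and 10.6 untreated.

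**Figure D2:**
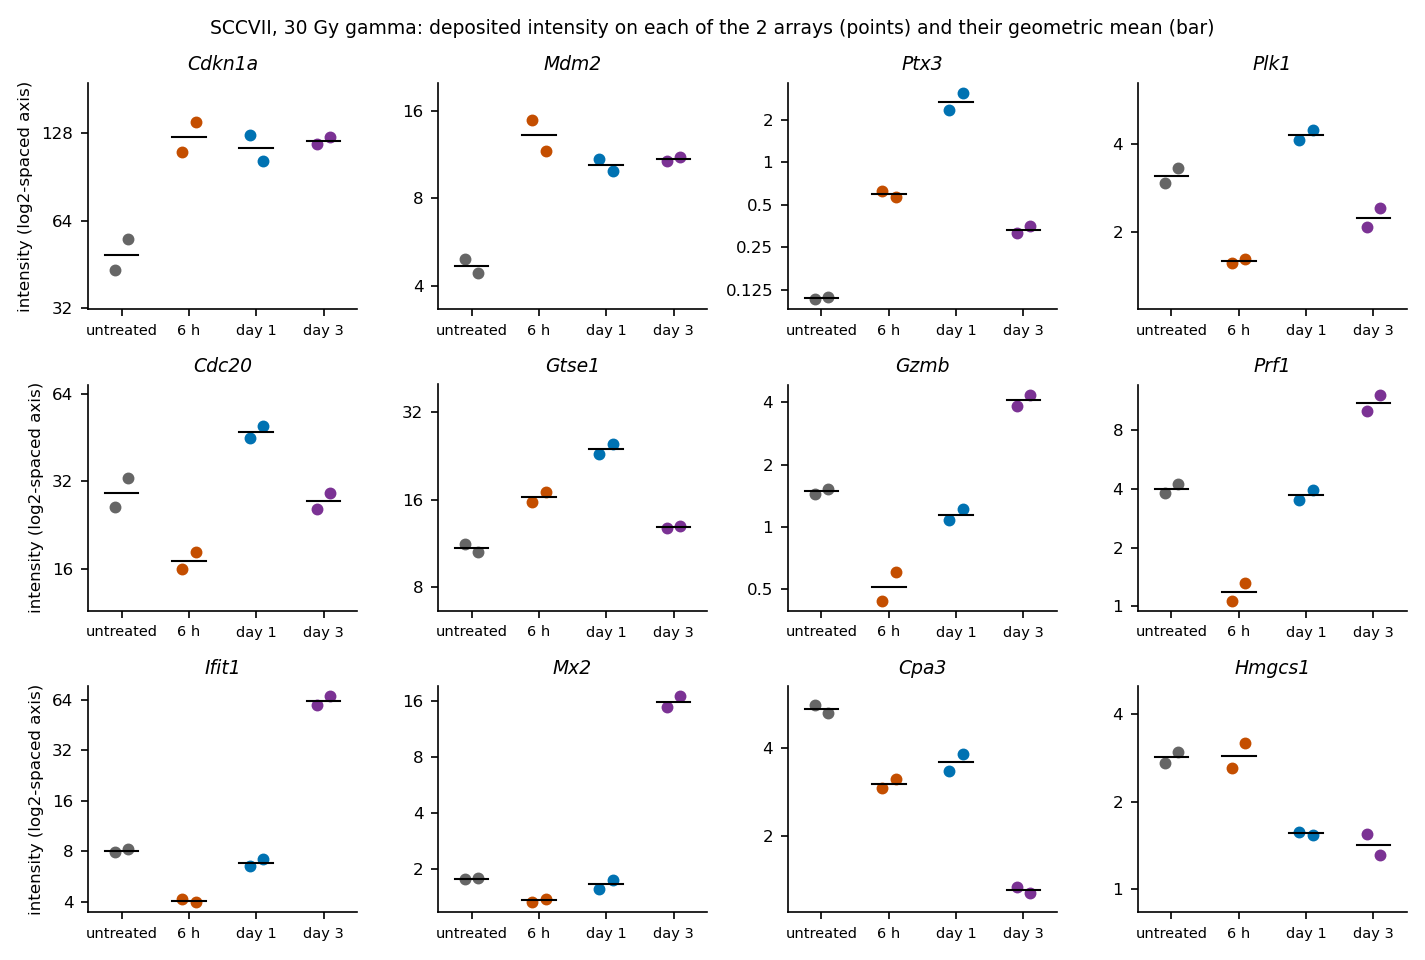
Intensity on a log2 axis of 12 genes on each of the 8 arrays, in time order with the untreated tumours at the left, and bars at the geometric mean of the 2 arrays. Cdkn1a and Mdm2 are raised at all 3 times, Plk1 and Cdc20 are lowest at 6 h and highest at day 1, and Ifit1 and Mx2 are above the untreated arrays at day 3 alone.

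Many promoters of mitotic genes carry a cell cycle homology region, TTTGAA, and a CCAAT box, through which the DREAM complex and the factor NF-Y act. Each was searched on both strands in the 250 bases before every annotated start of the RefSeq promoter set of GRCm38.p6, in which 39 of the 48 mitosis genes had a window. TTTGAA was present for 12 of the 39 (30.8%), against 18.3% of the 27025 genes of the set, and CCAAT for 29 (74.4%), against 37.5%. Of the 35 replication genes 32 had a window, with TTTGAA in 5 (15.6%) and CCAAT in 18 (56.2%). TTTGAA was present for 28.6% of T and NK cell markers, 23.5% of interferon-stimulated genes and 9.52% of sterol synthesis genes. CCAAT was present for 50%, 44.1% and 81% of these lists in the same order, so neither motif was particular to mitosis genes. The stretches below are the last 100 bases before the start of the 4 genes with the largest change at 6 h, Cdk1 not passing, among 5 mitosis genes that carry TTTGAA there upstream of the whole gene. They are shown because this gene group reversed its direction at each time. Starts on a single chromosome were left out of this choice. Capitals mark TTTGAA and CCAAT, or TTCAAA and ATTGG where the match is on the other strand.
Fam83d (chr2:158767999-158768098, plus strand): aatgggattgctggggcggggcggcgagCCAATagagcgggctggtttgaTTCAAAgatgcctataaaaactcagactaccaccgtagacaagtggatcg
Cdc20 (chr4:118437344-118437443, minus strand): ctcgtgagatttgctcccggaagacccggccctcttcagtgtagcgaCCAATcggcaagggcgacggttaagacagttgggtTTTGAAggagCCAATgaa
Kif11 (chr19:37376282-37376381, plus strand): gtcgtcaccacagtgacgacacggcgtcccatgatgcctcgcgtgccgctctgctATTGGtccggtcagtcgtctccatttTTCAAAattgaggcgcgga
Cdk1 (chr10:69352913-69353012, minus strand): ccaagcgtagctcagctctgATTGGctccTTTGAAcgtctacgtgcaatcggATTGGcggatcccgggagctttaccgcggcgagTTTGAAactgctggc
A match is a description of these letters and says nothing of binding. Fam83d, which recruits a kinase to the spindle, had 3.40 and 2.56 at 6 h, 8.01 and 9.29 at day 1 and 3.05 and 3.51 at day 3, against 5.85 and 5.03 untreated. Kif11, the motor that separates spindle poles, had 5.77 and 6.29 at 6 h, 12.7 and 11.8 at day 1 and 7.42 and 8.40 at day 3, against 9.57 and 10.6 untreated. Cdk1, the kinase of mitotic entry, had 109 and 148 at 6 h, 205 and 260 at day 1 and 164 and 166 at day 3, against 148 and 159 untreated. Fam83d and Kif11 were below both untreated arrays at 6 h and above them at day 1, whereas Cdk1 passed the test at day 1 only (0.59, adjusted p = 0.00062).

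DNA replication genes fell at 6 h and at day 3 but showed no overshoot at day 1. Of 35 tested, 23 fell at 6 h, 2 rose and 2 fell at day 1, and 20 fell at day 3, with 0 rises at 6 h and day 3 and medians of -0.45, 0.04 and -0.33. From 6 h to day 1 22 rose and 0 fell. The 20 falls of day 3 became 10 without the first day 3 array and 13 without the second untreated array or with only the arrays compared. Ccne2, the cyclin that starts S phase, was low throughout, with 1.06 and 1.05 at 6 h, 0.950 and 0.902 at day 1 and 1.04 and 1.21 at day 3, against 2.13 and 2.27 untreated. Mcm5, a subunit of the replicative helicase, differed in this from Ccne2: it had 25.8 and 26.7 at 6 h and 46.1 and 51.2 at day 1, against 33.9 and 39.8 untreated, a fall of 0.49 and a rise of 0.40 on the log2 scale.

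Of 29 DNA repair genes tested, 11 fell at 6 h, 6 rose and 4 fell at day 1, and 15 fell at day 3, with 0 rises at 6 h and day 3. Ung, the glycosylase that removes uracil from DNA, had the largest change: 0.876 and 1.10 at 6 h, 1.70 and 1.84 at day 1 and 1.93 and 2.16 at day 3, against 3.41 and 3.89 untreated. It was 3.71-fold lower at 6 h, 2.05-fold lower at day 1 and 1.78-fold lower at day 3 (SE 0.107 on the log2 scale, adjusted p = 4.4e-21, 1.8e-11 and 1e-08). The groups did not overlap, and the irradiated values lay closer to the untreated ones at each later time. Chek1, the checkpoint kinase downstream of ATR, fell by 0.97, 0.25 and 0.65 on the log2 scale at the 3 times.

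Genes of T cells and natural killer cells fell at 6 h and day 1, and at day 3 the cytotoxic genes among them exceeded the untreated level. Of 22 markers, 18 fell and 0 rose at 6 h, 14 fell and 0 rose at day 1, and 9 rose and 3 fell at day 3, with medians of -0.56, -0.70 and 0.11. The summed intensity of the 22 markers was 39.99 to 42.53 at 6 h, 47.05 to 47.76 at day 1 and 148.6 to 150.8 at day 3, against 71.84 to 73.54 untreated. Ccl5, a chemokine described below, made the largest part of the day 3 sum and Gzma the next. The sum thus follows a few bright genes, where the list median was 0.11. Most of these markers are dim: with the dimmest 50% of genes left out 8 remained, of which 5 fell at 6 h, 4 fell at day 1 and 3 rose at day 3.

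Prf1, the pore-forming protein of cytotoxic granules, had 1.07 and 1.31 at 6 h, 3.53 and 3.93 at day 1 and 10.1 and 12.2 at day 3, against 3.82 and 4.22 untreated. Its log2 changes in time order were -1.76, -0.11 and 1.47 (SE 0.204, adjusted p = 9.5e-10, 0.77 and 6.9e-08). The granule protease Gzmb followed the same order, with 0.441 and 0.603 at 6 h, 1.08 and 1.22 at day 1 and 3.85 and 4.34 at day 3, against 1.45 and 1.52 untreated. Gzma, another granule protease, had 5.49 and 6.46, 11.8 and 12.3, and 32.8 and 33.1 at the 3 times, against 20.4 on each untreated array. For all 3 genes 6 h was lowest and day 3 highest without overlap. Of the receptor complex chains, Cd3d had 2.05 and 2.29 at 6 h, 1.71 and 1.47 at day 1 and 2.37 and 2.22 at day 3, against 3.10 and 2.96 untreated, and fell at each time. Cd3g, another chain, had 1.30 and 1.65, 1.31 and 1.07, and 2.69 and 3.23, against 2.46 and 2.74 untreated. It fell by 0.83 and 1.13 on the log2 scale at 6 h and day 1 and did not pass at day 3 (0.19, adjusted p = 0.33). The signalling chain Cd247 did not pass at any time, with day 3 arrays of 4.94 and 4.54 against 4.26 and 4.41 untreated.

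Ccl5, a chemokine that draws T cells and monocytes, had 7.30 and 7.57 at 6 h, 6.54 and 6.43 at day 1 and 64.2 and 61.9 at day 3, against 10.4 and 11.0 untreated. It fell by 0.53 and 0.73 on the log2 scale at the first 2 times and was 5.87-fold higher at day 3 (adjusted p = 1.2e-23). Pdcd1, the inhibitory receptor PD-1, fell by 0.74 and 1.36 on the log2 scale at 6 h and day 1 and was 0.27 higher at day 3 (adjusted p = 0.03). Cd274, which encodes its ligand PD-L1, had 7.35 and 8.37 at 6 h, 14 and 13.5 at day 1 and 38.0 and 38.2 at day 3, against 11.4 and 13 untreated. It fell at 6 h (-0.63), lay above both untreated arrays without passing at day 1 (0.17, adjusted p = 0.4) and was 3.13-fold higher at day 3.

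Most interferon-stimulated genes fell at 6 h and nearly all rose at day 3. Of 47 tested, 31 fell and 0 rose at 6 h, 19 fell and 2 rose at day 1, and 46 rose and 0 fell at day 3, with medians of -0.51, -0.16 and 1.25. The 19 falls of day 1 became 12 without the first day 1 array, and its 2 rises became 0 without the second day 1 array or the first untreated array and 1 without the second untreated array. The 1 gene that did not pass at day 3 was Xaf1, a proapoptotic interferon target (0.12). From day 1 to day 3 45 of the 47 rose and 0 fell, with a median of 1.72. From 6 h to day 3 the test was passed by 2863 of 13448 genes (21.3%), with 1495 rises (11.1%) and 1368 falls (10.2%), and 46 of the 47 rose.

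Mx2, a dynamin-like antiviral GTPase, had 1.33 and 1.39 at 6 h, 1.57 and 1.76 at day 1 and 14.8 and 16.9 at day 3, against 1.76 and 1.8 untreated. It was 8.86-fold higher at day 3 (log2 3.15, SE 0.105, adjusted p = 2e-30). Usp18, the protease that removes ISG15 from proteins and dampens interferon signalling, had 80.9 and 79.4 at day 3, against 9.32 and 10.1 untreated. Irf7, the transcription factor that amplifies type I interferon, had 17.1 and 20.8 at 6 h, 26.8 and 29.7 at day 1 and 191 and 187 at day 3, against 27.9 and 25.6 untreated. These genes stood apart from the untreated arrays by far more at day 3 than at the earlier times.

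The interferon-stimulated genes that fell most at 6 h were the GTPases Gbp8 and Iigp1 and the chemokine Cxcl10. Gbp8 had 2.18 and 1.99 at 6 h, 3.49 and 4.12 at day 1 and 11.9 and 14.7 at day 3, against 8.04 and 7.64 untreated. Its log2 change was -1.91, -1.05 and 0.75 (SE 0.118, adjusted p = 1.7e-19, 2.7e-10 and 9.7e-07). Cxcl9, a chemokine for activated T cells, had 17.3 and 18.1, 21.6 and 23, and 60.8 and 54.7 at the 3 times, against 42.0 and 42.5 untreated. Cxcl10, a chemokine of the same receptor, fell by 1.35 and 0.78 on the log2 scale at 6 h and day 1 and rose by 1.62 at day 3. For Gbp8, Cxcl9 and Cxcl10 every array of 6 h and day 1 lay below, and every array of day 3 above, both untreated arrays. Genes of MHC class I and antigen processing, also interferon targets, fell for 4 of 11 at 6 h and 1 at day 1, and rose for 8 at day 3 (median 0.53).

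Interferon-stimulated promoters commonly hold an interferon-stimulated response element, here searched as GAAA, any 2 bases and GAAA on both strands in the same RefSeq windows. It was present for 17 of the 34 genes of the list with a window (50%), against 3.46% of all genes and 1 of the 39 mitosis genes (2.56%). The stretches below are the last 100 bases before the start of the 4 genes with the largest change at day 3 among 8 that carry it there upstream of the whole gene, with the element, on either strand, in capitals; overlapping matches run together. They are shown because this was the gene group with the highest median at day 3. Starts on the chromosome left out for the mitosis genes were left out here too.
Ifit1 (chr19:34640789-34640888, plus strand): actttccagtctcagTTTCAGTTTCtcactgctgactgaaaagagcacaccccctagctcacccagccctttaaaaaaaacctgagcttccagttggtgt
Irgm2 (chr11:58214877-58214976, plus strand): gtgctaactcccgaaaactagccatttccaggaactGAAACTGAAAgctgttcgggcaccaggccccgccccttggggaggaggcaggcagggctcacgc
Trim30a (chr7:104465194-104465293, minus strand): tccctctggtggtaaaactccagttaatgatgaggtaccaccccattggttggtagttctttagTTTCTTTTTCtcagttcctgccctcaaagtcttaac
Isg15 (chr4:156200819-156200918, minus strand): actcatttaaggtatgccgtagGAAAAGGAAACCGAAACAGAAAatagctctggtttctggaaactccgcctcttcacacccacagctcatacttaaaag
Ifit1, which binds foreign RNA, had 4.14 and 3.98 at 6 h, 6.53 and 7.17 at day 1 and 59.6 and 67.0 at day 3, against 7.96 and 8.20 untreated. It was 7.82-fold higher at day 3 (log2 2.97, adjusted p = 2.9e-28). Irgm2, an immunity-related GTPase, had 2.91 and 3.07 at 6 h, 4.75 and 4.28 at day 1 and 18.1 and 16.1 at day 3, against 5.76 and 6.25 untreated. Isg15, the ubiquitin-like modifier, had 0.464 and 0.634, 0.631 and 0.647, and 1.41 and 1.22, against 0.642 and 0.640 untreated. Trim30a, a regulator of inflammatory signalling in the mouse, was 2.66-fold higher at day 3. All 4 were above both untreated arrays at day 3 and not at 6 h.

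Of 32 chemokines and inflammatory cytokines, 14 rose and 2 fell at 6 h, 15 rose and 1 fell at day 1, and 19 rose and 1 fell at day 3, with medians of 0.19, 0.24 and 0.52. Ptx3, a soluble pattern-recognition protein, had 0.628 and 0.568 at 6 h, 2.32 and 3.07 at day 1 and 0.316 and 0.354 at day 3, against 0.108 and 0.111 untreated. It was 5.46-fold, 24.4-fold and 3.06-fold higher, with day 1 above every other array. Cxcl3, a ligand of the neutrophil receptor CXCR2, had 0.939 and 1.04 at 6 h, 0.886 and 1.01 at day 1 and 0.278 and 0.281 at day 3, against 0.127 and 0.0916 untreated. Saa3, an acute-phase protein, was 2.82-fold, 5.62-fold and 2.37-fold higher at the 3 times. Il11, a cytokine of the gp130 family, had its highest intensities at day 3, with 6.24 and 7.24 against 1.24 and 1.41 untreated.

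Neutrophil markers rose for 5 of 18 at 6 h, 7 at day 1 and 8 at day 3, and fell for 2, 0 and 4. S100a9, a subunit of calprotectin, had 4.86 and 4.92 at 6 h, 2.62 and 2.58 at day 1 and 0.698 and 0.708 at day 3, against 0.493 and 0.543 untreated. On the log2 scale it rose by 3.24, 2.33 and 0.44 (SE 0.115, adjusted p = 6.1e-30, 6.4e-24 and 0.0022), highest at 6 h and lower at each later time without overlap. Mmp8, the collagenase of neutrophil granules, had 1.24 and 1.13, 0.655 and 0.756, and 0.452 and 0.542, against 0.400 and 0.365 untreated. Retnlg, a resistin-like protein of neutrophils, rose at 6 h (0.81) and day 1 (0.53) and was 3.47-fold lower at day 3, with 0.482 and 0.514 against 1.75 and 1.70 untreated.

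Sterol synthesis genes fell as a group at day 1 and further at day 3. Of 27 sterol and fatty acid synthesis genes, 2 rose and 4 fell at 6 h, 19 fell at day 1 and 23 fell at day 3, with 0 rises at the later times and medians of -0.05, -0.54 and -0.84. The 4 falls of 6 h became 2 without the first 6 h array or either untreated array. Cyp51, the demethylase of lanosterol, had 43.7 and 40.8 at 6 h, 14.1 and 15.6 at day 1 and 10.4 and 11.2 at day 3, against 35.0 and 32.4 untreated. It rose by 0.33 at 6 h (adjusted p = 0.02) and was 2.27-fold lower at day 1 and 3.11-fold lower at day 3 (adjusted p = 5.3e-14 and 3.6e-19). Sqle, the monooxygenase that makes squalene epoxide, had 4.70 and 4.83 at 6 h, 2.40 and 2.39 at day 1 and 1.74 and 1.75 at day 3, against 4.95 and 5.53 untreated. Hmgcs1, the synthase that starts the pathway, had 2.60 and 3.18, 1.57 and 1.54, and 1.55 and 1.31 at the 3 times, against 2.72 and 2.97 untreated, and fell by 0.87 and 1.00 on the log2 scale at day 1 and day 3. Srebf2, the transcription factor that drives the pathway, passed only at day 3, with 5.01 and 4.57 against 10.3 and 9.79 untreated. Fasn, Scd1 and Dhcr7 did not pass at any time.

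Mast cell and endothelial markers had their lowest medians at day 3. Of 10 mast cell and eosinophil markers, 4 fell at 6 h, 5 at day 1 and 5 at day 3, with 0 rises and medians of -0.29, -0.30 and -0.76. The 5 falls of day 1 became 3 without the second untreated array. Cpa3, the carboxypeptidase of mast cell granules, had 2.92 and 3.13 at 6 h, 3.34 and 3.82 at day 1 and 1.33 and 1.27 at day 3, against 5.62 and 5.27 untreated. It was 1.8-fold, 1.52-fold and 4.18-fold lower (adjusted p = 7.3e-10, 1.8e-06 and 5.4e-24). The chymase Cma1, the protease Mcpt4 and the IgE receptor chain Fcer1a were 4.27-fold, 3.48-fold and 4.77-fold lower at day 3, and no array of day 3 reached an untreated one. The summed intensity of the 10 markers was 43.14 to 44.81 at 6 h, 41.91 to 42.90 at day 1 and 36.68 to 37.32 at day 3, against 48.83 to 51.41 untreated.

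Of 24 endothelial markers, 2 rose and 3 fell at 6 h, 3 rose and 4 fell at day 1, and 17 fell with 0 rises at day 3, with medians of -0.04, -0.05 and -0.46. Without any 1 array of the comparison the 3 falls of 6 h became 1 and the 4 falls of day 1 became 1 or 2. Pecam1, an adhesion molecule of vessel walls, had 2.33 and 2.01 at 6 h, 1.93 and 2.28 at day 1 and 1.12 and 1.4 at day 3, against 2.95 and 2.39 untreated. Its log2 change was -0.30, -0.34 and -1.09 (adjusted p = 0.28, 0.16 and 1.4e-06). Sox18, an endothelial transcription factor, was 2.53-fold lower at day 3, with 0.841 and 1.09 against 2.60 and 2.27 untreated. Lyve1, a receptor of lymphatic vessels and some macrophages, rose by 0.70 and 1.08 on the log2 scale at 6 h and day 1 and fell by 0.81 at day 3. Vwf and Erg, which are also endothelial, did not pass at any time. The summed intensity of the 24 markers was 88.58 to 92.64 at day 3, against 114 to 122 untreated.

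Macrophage and monocyte markers did not move as one group. Of 28, 6 rose and 4 fell at 6 h, 7 rose and 6 fell at day 1, and 12 rose and 5 fell at day 3. Ccr2, the receptor that brings monocytes from blood, had 20.6 and 20.4 at 6 h, 10.1 and 14.2 at day 1 and 7.84 and 7.38 at day 3, against 21.6 and 20.9 untreated. Fcgr4, an activating Fc receptor, had 8.83 and 8.69, 11.2 and 15.5, and 30.7 and 40.2 at the 3 times, against 14.2 and 12.7 untreated. Ccr2 thus fell at day 1 (-0.83) and day 3 (-1.48), while Fcgr4 fell at 6 h (-0.62) and rose at day 3 (1.39). Of 19 genes of MHC class II and dendritic cells, 6 fell at 6 h, 11 at day 1 and 7 at day 3, with 1, 0 and 1 rises and medians of -0.17, -0.48 and -0.22. Their summed intensity was 342 to 358.3 at 6 h, 212.5 to 220.9 at day 1 and 334 to 361.7 at day 3, against 397.6 to 404.7 untreated. Cd209a, a lectin of monocyte-derived dendritic cells, had 3.13 and 3.76 at 6 h, 1.62 and 1.8 at day 1 and 0.352 and 0.369 at day 3, against 2.41 and 2.39 untreated, which is 6.64-fold lower at day 3.

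Of 35 fibroblast and matrix genes, 12 rose and 5 fell at 6 h, 16 rose and 5 fell at day 1, and 13 rose and 7 fell at day 3, with medians of 0.11, 0.30 and 0.13. The 13 rises of day 3 became 7 without the first untreated array, the 7 falls became 3 without the first day 3 array, and the 5 falls of day 1 became 3 without the first day 1 array or the second untreated array. Tnc, a matrix protein of wounds, had 14.5 and 16.7 at 6 h, 22.7 and 22.6 at day 1 and 7.12 and 6.91 at day 3, against 5.08 and 5.91 untreated. Mfap5, a microfibril protein, was 3.26-fold, 7.54-fold and 1.29-fold higher at the 3 times. Of 10 matrix-degrading metalloproteinases, 2 rose and 3 fell at 6 h, and 5 rose and 0 fell at day 1 and at day 3. Mmp3, stromelysin 1, had 1.74 and 1.78 at 6 h, 2.67 and 2.41 at day 1 and 0.602 and 0.610 at day 3, against 0.536 and 0.480 untreated, and did not pass at day 3 (adjusted p = 0.06). Mmp10, stromelysin 2, was highest at day 3, with 1.34 and 1.54, 2.36 and 2.54, and 11.2 and 13.1, against 1.61 and 1.68 untreated. It was 7.35-fold higher at day 3 (adjusted p = 1.7e-32). Edn2, an endothelin, and Krt16, a keratin of activated keratinocytes, were also high at day 3, with 4.93 and 4.83 against 0.614 and 0.622, and 16.3 and 17.8 against 4.33 and 4.

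Of 23 unfolded protein and heat shock genes, 2 rose and 4 fell at 6 h, 2 rose and 8 fell at day 1, and 5 rose and 8 fell at day 3. Hspa1a, the inducible HSP70, had 13.6 and 20.8 at 6 h, 6.37 and 4.68 at day 1 and 3.05 and 3.83 at day 3, against 2.77 and 4.01 untreated. Its log2 change was 2.34, 0.71 and 0.04 (SE 0.217, adjusted p = 8.7e-13, 0.013 and 0.93), and day 3 lay within the untreated range. Hspb1, a small heat shock protein, stayed raised, at 84.0 and 93.3 at 6 h, 50.7 and 53 at day 1 and 48.2 and 47.1 at day 3, against 17.6 and 19.5 untreated. Slc7a11, the cystine importer, had 1.82 and 2.77 at 6 h, 1.08 and 1.05 at day 1 and 2.11 and 2.59 at day 3, against 4.09 and 5.33 untreated, and was lowest at day 1 (4.39-fold). Trib3, a pseudokinase of the amino acid and unfolded protein response, fell by 1.31, 1.25 and 0.73 on the log2 scale. Hmox1, heme oxygenase 1, rose by 1.49, 1.24 and 0.51.

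Skeletal muscle genes gave the largest rises at 6 h and, after Ptx3, at day 1 among the genes described here. Of the muscle genes, 20 of 24 rose at 6 h, 25 of 25 at day 1 and 13 of 25 at day 3, with 0 falls and medians of 2.75, 3.30 and 0.41. Pvalb, a calcium buffer of fast fibres, had 27.8 and 28.8 at 6 h, 26.1 and 24.4 at day 1 and 1.01 and 0.911 at day 3, against 1.04 and 1.08 untreated. It was 26.6-fold and 23.7-fold higher at 6 h and day 1 and did not pass at day 3 (-0.15, adjusted p = 0.33). Adipocyte genes rose at day 1 for 5 of 8, with 1 falling. Adipoq, the adipocyte hormone, had 0.415 and 0.549 at 6 h, 9.37 and 9.61 at day 1 and 0.28 and 0.278 at day 3, against 0.478 and 0.572 untreated. It was 18.1-fold higher at day 1 and 1.87-fold lower at day 3.

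The tumours grew in the hind leg, next to muscle and fat. The summed intensity of the 25 muscle genes was 495.4 to 534.7 at 6 h, 651.8 to 674.8 at day 1 and 211.1 to 237.9 at day 3, against 162.8 to 179.4 untreated, and 0 of the 25 lay below the floor, the highest 1st percentile of the 8 arrays (0.0256). The summed intensity of the 8 adipocyte genes was 102.6 to 119.9, 157.7 to 165 and 77.46 to 78.94 at the 3 times, against 96.83 to 107.2 untreated. In the carbon-ion arm the untreated SCCVII tumours had a muscle sum of 783.1 to 812.1, above every gamma-ray group. Against the untreated arrays of both arms, muscle genes rose for 15 and fell for 4 of 24 at 6 h, rose for 23 of 25 at day 1, and rose for 2 and fell for 19 at day 3. Mb, myoglobin, was 2.41-fold higher than the untreated gamma-ray arm at day 3 but fell by 0.89 on the log2 scale against both arms. Muscle and fat thus moved with the groups by an amount that depended on which untreated tumours were used. The part of muscle and fat in the other gene groups was not tested.

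**Figure D3:**
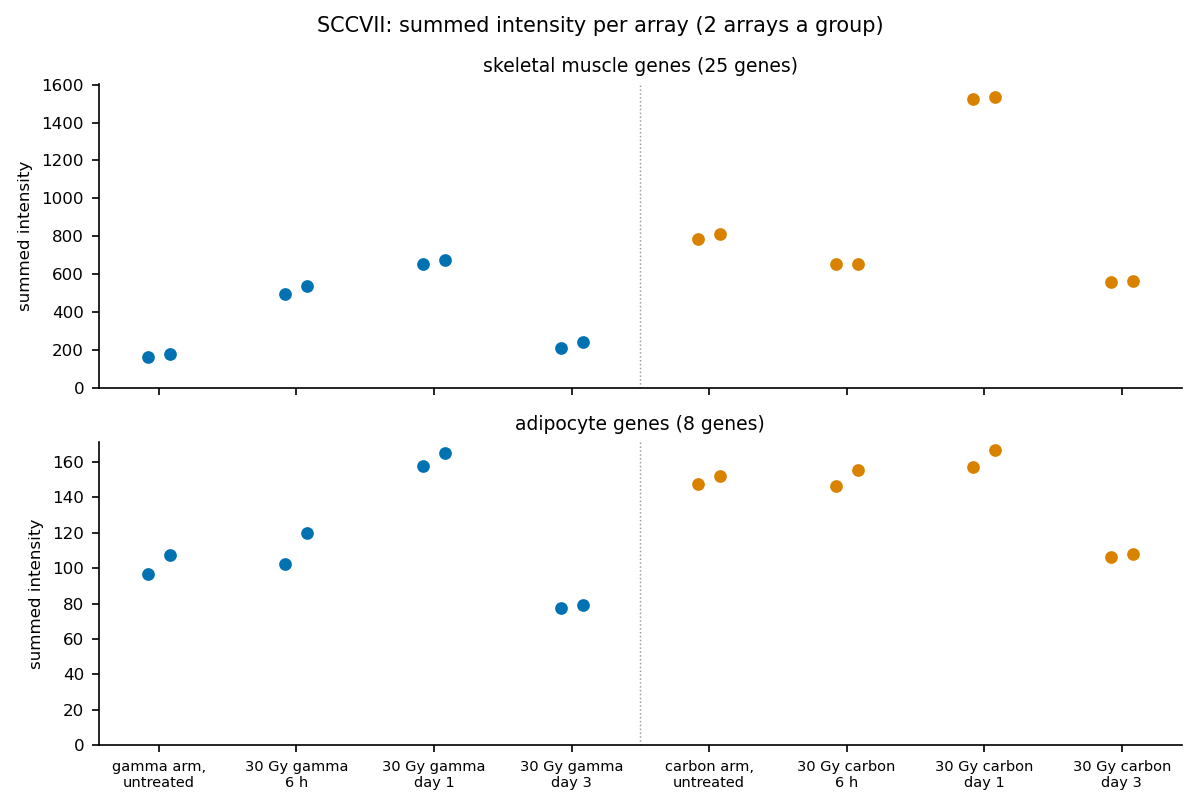
Summed intensity (y axis, from 0) of the 25 skeletal muscle genes (top) and the 8 adipocyte genes (bottom) on each array of SCCVII (points), by group, with the gamma-ray arm left of the dotted line and the carbon-ion arm right of it. The muscle sum is 495.4 or more at 6 h and day 1 after 30 Gy of gamma rays and 237.9 or less at day 3 and in the untreated tumours of the gamma-ray arm, and the untreated tumours of the carbon-ion arm lie at 783.1 to 812.1.

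Some genes passed in 1 direction at all times and others changed sign. Of the genes tested, 881 passed at all 3 times, and 151 rose and 49 fell by at least 1.5-fold at each, where 5.32% of all genes at 6 h, 7.81% at day 1 and 9.68% at day 3 passed with that fold. Cgref1, a secreted growth regulator, had 3.29 and 3.30 at 6 h, 2.06 and 2.30 at day 1 and 3.14 and 3.34 at day 3, against 0.547 and 0.462 untreated, with day 1 lowest of the 3 times. Zfp750, a transcription factor of epidermal differentiation, had 0.441 and 0.460, 0.464 and 0.443, and 0.553 and 0.599, against 0.0946 and 0.0517 untreated. Cryab, a small heat shock protein, was 3.12-fold, 3.34-fold and 3.03-fold higher. A fall at 6 h and a rise at day 3, both passing, was found for 148 genes and the reverse for 46. Acod1, the enzyme that makes itaconate in macrophages, had 2.94 and 4.86 at 6 h and 29.3 and 33.6 at day 3, against 10.6 and 12.7 untreated, and the granzyme Gzme 0.623 and 0.506 at 6 h and 5.37 and 5.96 at day 3, against 1.84 and 1.29 untreated.

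A few large values rested on arrays that disagreed. Ino80b, a subunit of a chromatin remodeller, had 28.9 and 2.46 on the 2 arrays of 6 h, 2.10 and 2.45 at day 1 and 1.98 and 1.79 at day 3, against 25.6 and 26.5 untreated. Eml5, a microtubule-associated protein, had 0.631 and 8.33 at 6 h, against 0.757 and 0.694 untreated. Neither gives a usable change at 6 h, since 1 of the 2 arrays lay at the untreated level. In the carbon-ion arm Ino80b was 1.73 and 1.65 in untreated tumours.

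The response of SCCVII was set against the mean response of NR-S1, NFSa and #8520 to the same dose by a test of the difference. At 6 h it differed for 1102 of 13421 genes (8.21%), with 663 higher in SCCVII (4.94%) and 439 lower (3.27%). At day 1 it differed for 2294 of 13414 (17.1%), 1591 higher (11.9%) and 703 lower (5.24%). At day 3 it differed for 3909 of 13419 (29.1%), 2832 higher (21.1%) and 1077 lower (8.03%). Over all genes the median difference was 0.04, 0.05 and 0.11. With quantile normalization 1204 were higher and 911 lower at day 1 (56.9% higher, against 69.4% without it) and 1723 higher and 1484 lower at day 3 (53.7%, against 72.4%).

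Mitosis genes differed at the later times. At 6 h 1 of 48 was higher and 1 lower in SCCVII, at day 1 43 were higher and at day 3 41, with 0 lower and median differences of 0.01, 0.66 and 0.80. The list medians at day 1 were 0.45 in SCCVII, 0.10 in NR-S1, 0.35 in NFSa and -1.09 in #8520, and at day 3 -0.28 in SCCVII, -0.47 in NR-S1, -1.13 in NFSa and -1.51 in #8520. The difference at day 1 was thus widest against #8520 and narrow against NFSa. Interferon-stimulated genes were lower in SCCVII for 21 of 47 at 6 h, with 0 higher, and higher for 32 at day 3, with 0 lower. Their medians at 6 h were -0.51 in SCCVII, 0.68 in NR-S1, 0.28 in NFSa and -1.08 in #8520, lowest in #8520, and at day 3 1.25 in SCCVII, 1.79 in NR-S1, 0.70 in NFSa and 0.68 in #8520.

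Most p53 targets did not pass this test. Of the 24, 0 were higher and 3 lower at 6 h, 3 and 3 at day 1, and 2 and 4 at day 3. Of all genes 4.94% were higher and 3.27% lower at 6 h, 11.9% and 5.24% at day 1, and 21.1% and 8.03% at day 3. The lower members were thus a larger share of the list than of all genes at each time. Cdkn1a had responses of 1.34 in SCCVII, 1.04 in NR-S1, 0.97 in NFSa and 1.11 in #8520 at 6 h, and the difference was 0.30 (SE 0.222, adjusted p = 0.5). Endothelial and hypoxia genes differed at day 3: 15 of 24 endothelial markers were lower and 1 higher in SCCVII (medians of -0.46 in SCCVII, -0.34 in NR-S1, 0.23 in NFSa and 0.31 in #8520), and 26 of 28 hypoxia and glycolysis genes were higher with 0 lower (0.17, -0.68, -0.67 and -0.36 in the same order). Mast cell markers were lower for 6 of 10 at day 3, with medians of -0.76, -0.22, -0.17 and -0.14. Skeletal muscle genes were higher in SCCVII for 18 of 24 at 6 h, 25 of 25 at day 1 and 24 of 25 at day 3, with 0 lower.

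**Figure D4:**
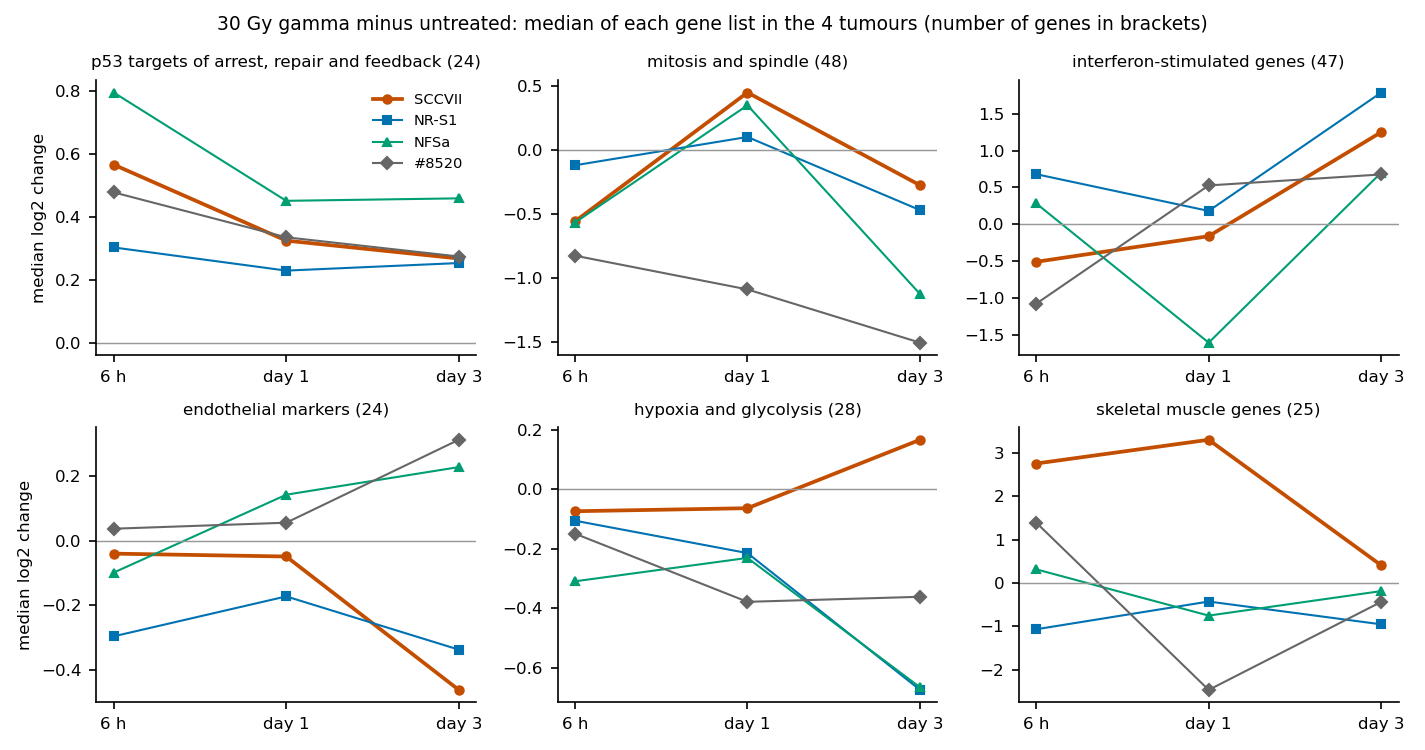
Median log2 change of 6 gene lists by time after 30 Gy of gamma rays in SCCVII, NR-S1, NFSa and #8520, each against its own untreated tumours (y axes differ between panels). At day 1 the mitosis median is 0.45 in SCCVII and -1.09 in #8520, and at day 3 the hypoxia and glycolysis median is 0.17 in SCCVII and -0.36 or lower in the other tumours.

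Gamma rays and carbon ions at 30 Gy were compared in SCCVII by the difference of their responses, each against the untreated tumours of its own arm. It passed for 1057 of 13415 genes at 6 h (7.88%), 2089 of 13418 at day 1 (15.6%) and 2464 of 13413 at day 3 (18.4%). Lower after gamma rays were 560 at 6 h (4.17%), 1057 at day 1 (7.88%) and 1343 at day 3 (10%), and higher were 497 (3.7%), 1032 (7.69%) and 1121 (8.36%). Interferon-stimulated genes were lower after gamma rays for 38 of 47 at 6 h, 34 at day 1 and 9 at day 3, with 0, 1 and 1 higher and median differences of -1.26, -0.83 and -0.13. Ifit1 had 4.14 and 3.98 at 6 h after gamma rays and 18.9 and 17.4 after carbon ions, where the untreated tumours had 7.96 and 8.20 in the gamma-ray arm and 5.49 and 6.25 in the carbon-ion arm. Its response at 6 h was -0.99 to gamma rays and 1.63 to carbon ions.

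Cxcl2, a neutrophil chemokine, had responses at 6 h of 0.87 to gamma rays and 3.87 to carbon ions, a difference of -3.00 (SE 0.227, adjusted p = 6.3e-16). Of the 48 mitosis genes, 0 were higher and 2 lower after gamma rays at 6 h, 8 and 0 at day 1, and 5 and 0 at day 3. Their medians in time order were -0.56, 0.45 and -0.28 after gamma rays and -0.47, 0.15 and -0.40 after carbon ions. Macrophage markers were lower after gamma rays for 14 of 28 at day 3, with 2 higher (median -0.51). Retnla, a resistin-like protein of alternatively activated macrophages and fat, had 1.52 and 1.48 at day 1 after gamma rays and 0.456 and 0.357 after carbon ions, with 0.321 and 0.334 in the untreated tumours of the gamma-ray arm and 6.32 and 6.85 in those of the carbon-ion arm. Its difference was 6.23, with responses of 2.20 to gamma rays and -4.03 to carbon ions. Beam and arm cannot be told apart in these differences, since each beam has its own untreated arrays.

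A dose of 50 Gy was compared with 30 Gy of gamma rays at 6 h. The 50 Gy arrays of SCCVII at day 1 and day 3 were not compared, since their 1st percentiles of 0.3583 to 0.3779 lay far above the floor of 0.0256. They stayed in the fit of all arrays. Without the 8 arrays of the series with such a raised low end, 2182, 3014 and 3858 genes passed against untreated in time order. The test passed for 1030 of 13448 genes (7.66%), with 669 higher (4.97%) and 361 lower (2.68%) at 50 Gy. Mitosis genes were lower at 50 Gy for 17 of 48 with 0 higher (median -0.32), hypoxia and glycolysis genes were higher for 16 of 28 with 0 lower (0.45), and T and NK cell markers were higher for 14 of 22 with 0 lower (0.48). Of the 24 p53 targets of arrest, repair and feedback, 4 were higher and 0 lower (-0.10). Adm, the vasodilator adrenomedullin, had 5.14 and 5.23 at 50 Gy and 0.971 and 1.07 at 30 Gy, a difference of 2.35 (SE 0.115, adjusted p = 7e-22). Hspa1a had 73.7 and 66.9 at 50 Gy and 13.6 and 20.8 at 30 Gy. Muscle genes were higher at 50 Gy for 14 of the list, with a sum of 618.1 to 646.7 at 50 Gy and 495.4 to 534.7 at 30 Gy, and their part in these differences was not tested.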

How the data were processed

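Total RNA of transplanted mouse tumours was labelled in 1 colour and hybridised to CodeLink arrays, per the labels' protocols. The deposited table holds linear intensities, with a median near 1 on each array and values as low as -0.2708. No label names the scanner software, the background rule or the scaling. Over the 88 arrays 0.751% of values were missing and 0.149% were not above 0, and both were left out.

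Intensities were taken to log2. Of 36227 probes, 21615 carried 1 gene symbol, 681 several and 13931 none. Symbols were updated by Entrez number for 21487 probes with the RefSeq table of GRCm38.p6. The probe with the highest mean stood for each of 18067 genes, 3002 of which had several probes. Genes in the lowest 25% of mean log2 intensity, or with values on under 80% of arrays, were left out, and 13452 remained. limma 3.58.1 in R 4.3.3 fitted 44 group means to the 88 arrays with empirical Bayes and Benjamini-Hochberg adjustment over all genes tested, and an adjusted p under 0.05 was called. The test was tested on simulated data, where it recovered 36% of genes changed 1.25-fold, 80% at 1.5-fold and 100% at 2-fold or more for 6 h against untreated, with 12 false calls of 170.

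The members, gene lists and tests were chosen with earlier results of these data known. Named genes were the largest rises and falls of each comparison with both arrays beyond both untreated arrays, up to 3 members of each list at each time, and Cdkn1a, Mdm2, Ccng1 and Plk1. Named after their values were seen were Btg2, Cd247, Cd3d, Cd3g, Cdc20, Cdk1, Ddb2, Dhcr7, Epcam, Erg, Fasn, Hmgcs1, Irgm2, Isg15, Kif11, Krt5, Krt8, Krt14, Scd1, Sesn1, Sfn, Srebf2, Trim30a, Vwf and Xaf1. The number of arrays limits the precision. Alternatives were quantile normalization, centring, an offset, other filters, other samples in the fit, a replicate block and leaving out each array.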

Additional observations from a re-analysis of the deposited data

Results flagged for a closer look

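The response of SCCVII differed from the mean response of NR-S1, NFSa and #8520, by limma's test of the difference itself, most widely for the genes below, which are the 3 largest positive and 3 largest negative differences at each time, on the log2 scale, among genes whose SCCVII response lay outside the range of the other 3 and whose group means lay above the floor.

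At 6 h Pvalb differed by 4.58 (SE 0.123, adjusted p = 1.1e-34), with responses of 4.74 in SCCVII, -1.24 in NR-S1, 0.23 in NFSa and 1.48 in #8520. Pgam2 differed by 4.26 and Tnnt3 by 4.09, and all 3 are muscle genes. Ccl20, a chemokine of mucosal tissues, differed by -2.47, but its 2 arrays at 6 h read 0.143 and 0.0292. The chemokine Ccl3 differed by -2.04 (adjusted p = 3.4e-21), with responses of -0.50 in SCCVII, 2.72 in NR-S1, 1.08 in NFSa and 0.82 in #8520. Defb11, a beta-defensin, differed by -2.12 (adjusted p = 0.021) and had 1 array without a value at 6 h.

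At day 1 the same muscle genes differed by 6.92 (Pvalb), 6.17 (Pgam2) and 5.99 (Tnnt3), with a Pvalb response of -4.68 in #8520. Pramel32 differed by -2.16 (adjusted p = 2e-10), Lhfpl1 by -1.93 and Ms4a10 by -1.66. The difference of Ms4a10 was widest against NR-S1, with a response of 3.68.

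At day 3 Edn2 differed by 3.56 (SE 0.196, adjusted p = 9.8e-21), with responses of 2.98 in SCCVII, -1.46 in NR-S1, -0.18 in NFSa and -0.09 in #8520. Mmp10 differed by 3.12 and Plet1, an epithelial surface protein, by 3.11, the last with 1 day 3 array missing. Stfa3, a stefin of neutrophils, differed by -3.44, with day 3 arrays of 0.0182 and 0.145 that disagree. Daam2, a regulator of actin and Wnt signalling, differed by -2.48 (adjusted p = 3.9e-16), and Cyp2f2, a monooxygenase, by -2.22, with responses of -0.11 in SCCVII, 1.18 in NR-S1, 3.35 in NFSa and 1.78 in #8520. The causes of these differences were not tested.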

How the results depend on the processing

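The labels number arrays 1 and 2 at 6 h, day 3 and untreated, and 3 and 4 at day 1. Deviations of same-numbered arrays correlated at 0.1049 between 6 h and day 3, 0.3904 between 6 h and untreated and 0.1477 between day 3 and untreated, and no label says what a number marks. With the replicate block the counts of calls were 2179 at 6 h, 3033 at day 1 and 3834 at day 3, and it changed no call of a named gene. Counting changes of at least 1.5-fold gave 716, 1050 and 1302 at the 3 times, 679, 1196 and 1140 between times (day 1 against 6 h, day 3 against day 1, day 3 against 6 h), 496, 998 and 1569 against the other tumours, 1215 and 1453 against carbon ions at day 1 and day 3, 334 for 50 Gy and 2442 between the untreated arms. A fit of only the arrays compared gave 898 at 6 h, 967 for day 1 against 6 h, 1829 for day 3 against 6 h, 434, 1257 and 1400 against carbon ions, and 498 for 50 Gy. Against the untreated arrays of both arms 4269 genes passed at 6 h, 4599 at day 1 and 5248 at day 3. Rises made up 68.4%, 72.1% and 67.6% of these calls, where they were 58.7%, 63.5% and 61.5% against the gamma-ray arm alone. This setting holds more untreated arrays and also brings in the difference between the arms, and the part of each was not tested. With the dimmest 50% of genes left out 677 passed against carbon ions at 6 h, 671 for 50 Gy and 3992 between the untreated arms, with fewer genes tested.

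Leaving out 1 array gave 1393 to 1585 calls at 6 h, 1887 to 2354 at day 1 and 2578 to 3032 at day 3. Between times it gave 1256 to 1608, 2058 to 2357 and 2086 to 2368. Against the other tumours it gave 736 to 867, 1503 to 2006 and 2719 to 3466. Against carbon ions it gave 733 to 1073, 1462 to 1808 and 1846 to 2238, for 50 Gy 564 to 964, and between the untreated arms 4863 to 5447.

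Among named genes, 12 values turned their sign against the untreated arrays of both arms: at 6 h Aldoc (0.073), Car3 (-0.023), H2ax (0.089), Igfbp5 (-0.11) and Srebf1 (0.049), at day 1 Aldoc (0.24), H2ax (0.17) and Rps4x (-0.00202), and at day 3 Col19a1 (-0.52), Herpud1 (0.058), Mb (-0.89) and Plk1 (0.017). Under that setting 32 of 297 lost their call without turning. With only the arrays compared 35 of 297 lost it, with quantile normalization 17, with only the 22 SCCVII arrays 8, with the mean of all probes 5, with no filter on dim genes 4, and with an offset or an intensity trend 1 each. Leaving out 1 array lost the call in 81 instances and kept it in 1103. The cause was not tested. The dim end of the arrays limits genes near 0.0256, such as Tekt1, Col19a1 and Plch2, for which no fold is given.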

Other observations

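Hypoxia and glycolysis genes, which HIF factors induce, fell for 5 of 28 at 6 h with 0 rises, and rose for 7 and fell for 1 at day 3. Genes of NRF2 and oxidative stress rose for 6 of 22 at 6 h, 8 at day 1 and 7 at day 3. Rises made up 9.21%, 14% and 17.2% of all genes tested, in time order. The list did not move in a single direction. A fall passed for 1 member at 6 h, and Slc7a11, which belongs to the list, lay below both untreated arrays throughout. B cell markers had a summed intensity of 24.05 to 26.77 at 6 h, 26.94 to 27.58 at day 1 and 26.41 to 26.71 at day 3, against 31.44 to 32.41 in untreated tumours. The median log2 change of these 9 genes was -0.06, 0.05 and 0.09 in time order, so the lower sum follows the brighter members and not the whole list. Ribosomal protein genes rose for 0 of 31 at 6 h, 8 at day 1 and 3 at day 3, and between the untreated tumours of the gamma-ray and carbon-ion arms 26 of 31 were lower in the gamma-ray arm (median -0.71).

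Among genes with an untreated mean below the floor, Tekt1, a tektin of cilia, had intensities of 0.213 and 0.285 at 6 h, 0.354 and 0.318 at day 1 and 0.139 and 0.136 at day 3, against 0.0583 and 0.0087 in untreated tumours. Col19a1, a collagen of muscle and nerve, had 0.128 and 0.165, 0.165 and 0.173, and 0.0622 and 0.0815 at the 3 times, against 0.0434 and 0.0147 untreated.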
